A study of Oncorhynchus mykiss with 9 samples.

Results

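The microRNA (miRNA) pool of control rainbow trout liver was described from the 3 small-RNA libraries labelled control, made from liver of wild-type Oncorhynchus mykiss that was flash-frozen before RNA extraction. An entry was a member when its mean over those libraries reached 1 TPM, the deposited read abundance scaled to a read total per library. The cut kept 456 of 1413 entries, 249 of the 540 that carry a known miRNA name and 207 of the 873 that were predicted from the reads. The series also holds 3 libraries from moderate and 3 from acute hypoxia, which were not analysed here, and no treatment was compared. The labels do not say whether the 3 control libraries came from separate fish, so the spread between them may be partly technical.

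A miRNA is cut by Drosha and Dicer from a hairpin whose 2 arms can each give a short RNA of about 22 nt, and usually one arm is loaded into an Argonaute protein while the other is degraded. Bases 2 to 8 of the loaded RNA, the seed, pair with target mRNAs, so miRNAs with the same seed can bind the same sites. In vertebrate liver the pool is known for its dominance by miR-122, which hepatocytes make in large amounts and which in mammals acts on cholesterol and lipid metabolism. Known names in the file end in x, y or z, and the file does not state what these letters mean. The x sequences of miR-122, let-7 and miR-21 are those known from the 5′ arm, and the y sequences of miR-22, miR-101 and miR-126 those known from the 3′ arm. Names carry no letter for copies, so that one name can stand for several copies of a miRNA, and the file lists 1 sequence for each name.

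The sequences of the 10 most abundant entries, which together made 81.2% of the pool, are shown as deposited, 5′ to 3′ with T for U and the seed in capitals. Where they lie in the genome is not given in the sources used here.

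miR-122-x: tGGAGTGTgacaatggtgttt
miR-199-x: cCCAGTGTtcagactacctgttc
miR-100-x: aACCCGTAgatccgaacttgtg
miR-30-x: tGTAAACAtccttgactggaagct
let-7-x: tGAGGTAGtagattgaatagtt
miR-26-x: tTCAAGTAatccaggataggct
miR-22-y: aAGCTGCCagctgaagaactgt
miR-181-x: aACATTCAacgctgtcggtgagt
miR-192-x: aTGACCTAtgaattgacagcca
miR-100-z: aACCCGTAgatccgaacttgtga

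The 10 entries carry 9 different seeds, since miR-100-z is miR-100-x with 1 more base at the 3′ end.

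The TPM of the control libraries were scaled to totals of 10346822, 10264503 and 9075434 reads (controls 1, 2 and 3), recovered from the step of the low values. These totals may not be all reads of a library. So 1 TPM corresponded to 10.3, 10.3 and 9.08 reads. A count of 10 reads has a 95% exact Poisson interval of 4.80 to 18.4, and 3 reads, taken as the floor of detection, correspond to 0.290, 0.292 and 0.331 TPM. Intervals and floors of this kind take in counting error alone. All 456 members had reads in each library, and 379 reached 1 TPM in each. No pair of libraries agreed within sampling noise (chi-square per degree of freedom of 709 to 3115 over the members), so none was counted as one library deposited again. Control 1 stood somewhat apart: across the 456 members, which share libraries and depth, Pearson's r of log2(TPM + 1) was 0.981 and 0.980 with controls 2 and 3, and 0.990 between controls 2 and 3.

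The pool was dominated by miR-122-x, which held 307409, 459053 and 500523 TPM in controls 1, 2 and 3. This was 30.6%, 45.7% and 49.9% of the pool, 42.0% ± 10.1 (SD, n = 3). It ranked first in each library, and its share was lowest in control 1. The 95% exact binomial interval of each share was at most 0.0325 percentage points to either side, so the libraries differed by far more than counting error. In liver tissue as a whole, fewer cells of a type and less RNA per cell cannot be told apart. Its marker companion miR-192-x, known from liver and gut, ranked ninth with 31381, 20627 and 24408 TPM. As deposited, miR-192-x was highest in control 1, the library with the lowest miR-122-x. Values are parts of a whole, so such an order can depend on the scale. The other ending, miR-122-y, was at 175, 1357 and 737 TPM, also lowest in control 1.

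Abundance fell steeply behind miR-122-x. The 2 most abundant entries made 50% of the pool, 16 made 90% and 70 made 99%. Single libraries needed 3, 2 and 2 entries for 50%, and 17, 16 and 15 entries for 90% (controls 1, 2 and 3). The effective number of entries, the inverse of the sum of squared shares, was 7.79, 4.34 and 3.78. By order of magnitude, 1 entry lay above 100000 TPM, 15 lay between 10000 and 100000 TPM and held 48.1% of the pool, and 22 lay between 1000 and 10000 TPM with 7.01%. At the other end, 260 entries at 1 to 10 TPM together held 0.0820%. The 957 entries below the cut held 0.0219% of the table, and 182 of them had no read in any control library. Just inside the cut lay a predicted entry at 1.0001 TPM and miR-15-z at 1.02 TPM, and just outside it 2 predicted entries at 0.989 and 0.985 TPM.

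**Figure D1:**
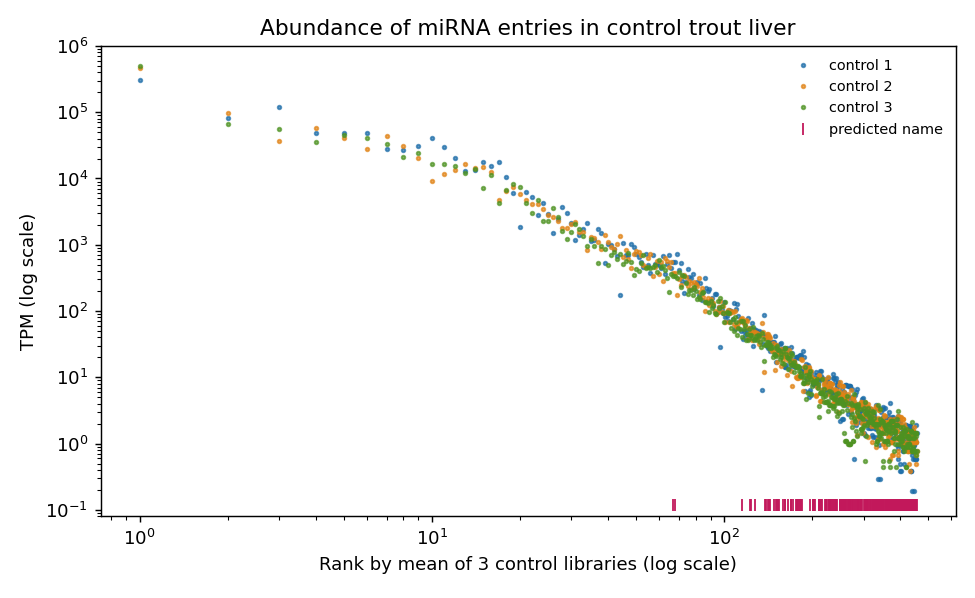
Abundance of the 456 members (TPM, log scale) against their rank by the mean of the 3 control libraries (log scale), with 1 point per library and ticks at the foot for predicted names. The first entry, miR-122-x, lies at 307409 to 500523 TPM, and no predicted name ranks above 67.

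Most ranks below miR-122-x were taken by miRNAs found in many vertebrate tissues. The second entry, miR-199-x, had 82942, 98019 and 65704 TPM in controls 1, 2 and 3. In mammals miR-199 is known from fibroblasts and smooth muscle. The third, miR-100-x, of the old miR-99/100 family, had 120350, 36452 and 55287 TPM, and control 1 exceeded both others. Next came miR-30-x with 48840, 58259 and 35843 TPM, and let-7-x, the regulator of developmental timing first found in Caenorhabditis elegans, with 48158, 40669 and 44544 TPM. The values of let-7-x lay close together in all 3 libraries. A growth-restraining miRNA of mammals, miR-26-x, had 48056, 28221 and 41315 TPM, and miR-22-y had 27380, 44465 and 33305 TPM. The library with the lowest miR-26-x, control 2, was the one with the highest miR-22-y. The lymphoid regulator of mammals, miR-181-x, had 26770, 30647 and 21343 TPM.

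Below them, miR-21-x, abundant in many cell types, had 30338, 11507 and 16783 TPM. The inducible inhibitor of NF-kB signalling in mammals, miR-146-x, had 20177, 13528 and 15243 TPM. The smooth muscle miRNA miR-143-y had 12844, 16533 and 12236 TPM. Both miR-21-x and miR-146-x were highest in control 1 and lowest in control 2, the library in which miR-143-y was highest. The let-7 companion miR-125-x had 13216, 14255 and 14060 TPM and was among the steadiest of all entries. The endothelial miR-126-y, which in mammals lies in an intron of Egfl7, had 15449, 12367 and 11407 TPM. The remaining entries of the first 20 were miR-101-y, miR-148-y, miR-199-y, miR-92-y and miR-128-y, with means of 13324, 8941, 7936, 7251 and 5106 TPM. In each library 8 entries were among the first 10, out of 12 that reached the first 10 in any, and 18 of 22 were among the first 20.

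Summed over all endings of a name, the known members formed families, of which 64 had a single entry, 46 had 2 and 31 had 3. The miR-122 family held 42.1% ± 10.2 of the pool (SD, n = 3). The miR-100 family followed with 160859, 45802 and 71650 TPM in controls 1, 2 and 3. Its mean share of 9.23% ± 6.001 rested on control 1: without that library it was 5.85%, and the miR-199 family took the second rank with 8.81%. Over all 3 libraries miR-199 held 8.98% ± 1.62, miR-30 4.94% ± 1.14 and let-7 4.71% ± 0.363. The families of miR-26, miR-22, miR-181, miR-192 and miR-21 held 3.91%, 3.54%, 2.66%, 2.58% and 2.04%. With miR-146 at 1.63% and miR-125 at 1.49%, the first 12 families made 87.8% of the pool, and 15 families held at least 1%. Among the first 12, the steps from miR-122 to miR-100, from miR-199 to miR-30 and from miR-22 to miR-181 were larger than either SD of the pair. The other steps in this order were not larger than both SDs of the pair. Compared within libraries, let-7 still exceeded miR-26 in every library, and miR-192 exceeded miR-21 in every library.

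**Figure D2:**
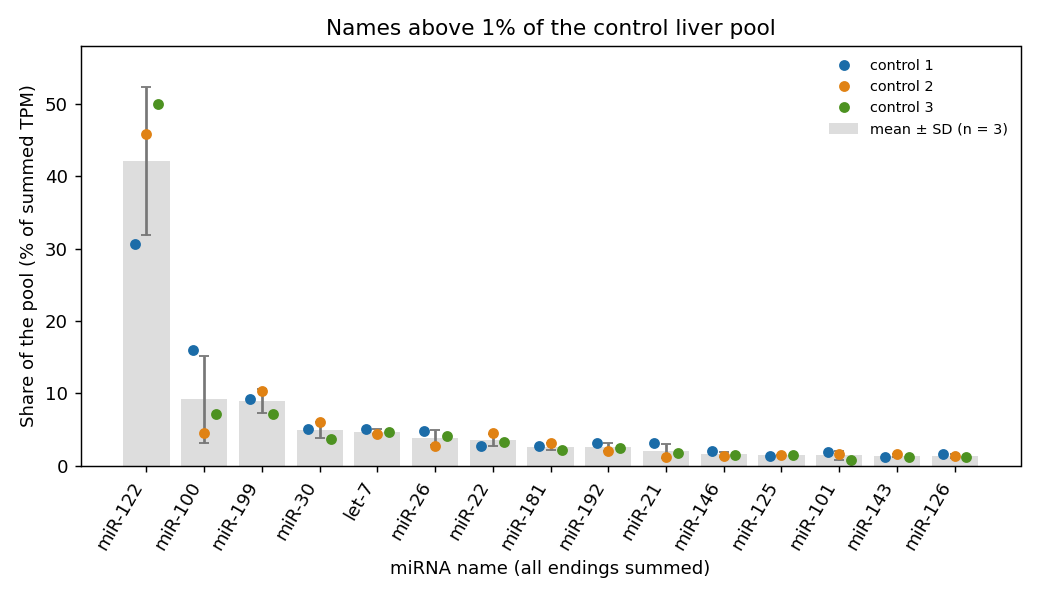
Share of the pool (% of summed TPM) for the 15 miRNA names above 1%, with all endings summed; points are control libraries 1 to 3, bars the mean and error lines the SD (n = 3). The miR-122 points spread from 30.6% to 49.9%, and the miR-100 point of control 1 lies above those of controls 2 and 3 at 4.56% and 7.14%.

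Grouping by seed instead of name gave 303 seeds and nearly the same order. At least 1% each was held by 16 seeds, and 25 seeds joined at least 2 names. The seed ACCCGTA of miR-100 and miR-99 held 16.5%, 4.80% and 7.34% in controls 1, 2 and 3, a mean of 9.53% that was 6.07% without control 1. The seed GAGGTAG of let-7, miR-98 and miR-5991 held 4.67%. The seed CAGTGCA of miR-148 and miR-152 held 2.61%, 1.08% and 0.855%, a mean of 1.52% that was 0.967% without control 1. The sequences that carry these joins are shown with the seed in capitals.

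miR-99-x: aACCCGTAgatccgatcttgt
miR-148-y: tCAGTGCAttacagaactttga
miR-152-y: tCAGTGCAtaacagaactttga
miR-215-x: aTGACCTAtgaattgacagccaa
miR-10014-x: tGGAGTGTgacaatggtaa

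Over their shared length miR-99-x differs from miR-100-x by 1 base, and miR-152-y differs from miR-148-y by 1 base. The listed miR-215-x is miR-192-x with 1 more base at the 3′ end, and miR-10014-x, at 485 TPM, shares the first 17 bases of miR-122-x. How reads were divided between such pairs is not given in the sources used here, so the values of miR-99-x (2335 TPM), miR-152-y (4143 TPM), miR-215-x (691 TPM) and miR-10014-x are uncertain.

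By cell type, the miRNAs known from hepatocytes held 51.0% ± 9.03 of the pool. These were miR-122, miR-192, miR-194, miR-215, miR-148, miR-101 and miR-22, the last 3 also made in many other cells. Of their listed entries 18 of 19 were members, against 249 of all 540 known entries (46.1%). This was not particular to hepatocytes. Members were also 13 of 14 stroma and smooth muscle entries, 9 of 12 epithelial and 2 of 2 endothelial ones. They were 5 of 6 red-cell, 5 of 6 striated muscle, 8 of 12 leukocyte, 3 of 6 pancreatic and 4 of 11 neural entries. The miRNAs known from stroma and smooth muscle (miR-199, miR-214, miR-143, miR-145 and miR-152) came next with 11.1% ± 1.94, of which miR-199-x alone made 8.18%. By family, miR-199 held 8.98% of the pool, miR-152 0.616% and miR-214 only 0.0141%. The value of miR-152-y is uncertain, since it differs by 1 base from miR-148-y, which is on the hepatocyte list. Which cells the miR-199 reads came from was not tested. The leukocyte list (miR-142, miR-150, miR-155, miR-223 and miR-146) held 1.74% ± 0.341, nearly all of it miR-146-x, which other cells also make. Its more restricted members were far lower: miR-142-x, made across blood cells, had 1033, 1112 and 500 TPM, and the neutrophil miRNA miR-223-y averaged 15.1 TPM. The lymphocyte miRNA miR-150-x had 28.8, 140 and 155.03 TPM, and miR-155-x of activated immune cells averaged 5.66 TPM.

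The endothelial miR-126 held 1.37% ± 0.213. Red-cell miRNAs held 0.276% ± 0.0742. Among them miR-451-x, which Argonaute itself matures without Dicer, had 1723, 1549 and 1361 TPM, and its cluster partner miR-144-y had 1700, 1091 and 530 TPM. Another red-cell miRNA of mammals, miR-486-x, averaged 0.101 TPM, below the floor. As deposited, miR-451-x and miR-144-y were each highest in control 1 and lowest in control 3, with miR-144-y spread more widely. Epithelial miRNAs held 0.462%, mostly miR-200-y (3355 TPM) and miR-141-y (670 TPM).

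Lists of tissues other than liver held small sums, with some entries above the member median of 6.41 TPM. The striated muscle list summed to 62.4 TPM, most of it miR-499-x at 45.7 TPM, with miR-1-z at 10.7 TPM and miR-133-z at 2.41 TPM. The neural list summed to 20.4 TPM, led by miR-9-z at 8.47 TPM and miR-124-y at 6.54 TPM. The pancreatic list summed to 130 TPM, of which the islet miRNA miR-375-y made 108 TPM and miR-216-x 19.7 TPM. In the sensory cluster miR-183-x had 5.24 TPM, miR-96-x 2.35 TPM and miR-182-x 0.778 TPM. None of 5 entries of the gonad and embryo list reached the cut, against 249 of all 540 known entries that did. The highest of the 5 was miR-430-y, which in zebrafish clears maternal mRNAs, at 0.632 TPM. What share of these signals came from other cells in the liver samples was not tested.

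Among families with shared clusters, the miR-17-92 group (with its paralogues) held 1.014% of the pool, of which miR-92-y made 7251 TPM, miR-25-y 1105 TPM, miR-19-y 767 TPM and miR-19-z 465 TPM. From the same group miR-17-x stood at 82.4 TPM and miR-18-x at 28.9 TPM. The miR-23/27/24 cluster held 0.702%, with miR-27-y at 5072 TPM, miR-23-y at 1300 TPM and miR-24-y at 547 TPM. The group of miR-15, miR-16 and miR-457 held 0.521%, led by miR-16-x at 3857 TPM and miR-15-x at 1232 TPM, and miR-195 had no member. Together miR-103 and miR-107 held 0.158%, led by miR-107-y at 594 TPM and miR-103-z at 528 TPM. These names share a seed and had nearly equal sums in controls 1, 2 and 3. The sums were 806, 892 and 674 TPM for miR-103, and 811, 896 and 679 TPM for miR-107. Whether the same reads were counted under both names was not tested, so their joint share is uncertain. The Hox-cluster miRNA miR-10-x stood at 838 TPM. Of miR-29, known in mammals as a collagen regulator, the x ending stood at 241 TPM and the y ending at 167 TPM.

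Of names described from teleost fish, 16 of 27 entries were members, against 249 of all 540 known entries. The 16 summed to 4457 TPM, or 0.444% of the pool. The cluster partners miR-462-x and miR-731-x, which respond to low oxygen and viruses in fish, had 1170, 2177 and 2052 TPM and 186, 353 and 338 TPM in controls 1, 2 and 3. Both were lowest in control 1 and near each other in controls 2 and 3. The other leading teleost entries were miR-722-y at 1569 TPM and miR-459-x at 447 TPM. The hypoxia-induced miRNA of mammals, miR-210, summed to 389, 311 and 349 TPM in these control livers, spread over 3 endings.

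Among known entries, 92 end in x, 91 in y and 66 in z. By abundance, x held 83.0% ± 2.82, y 13.6% ± 1.58 and z 3.34% ± 1.79 (SD, n = 3). Much of the x share was miR-122-x: without the miR-122 family x held 70.8%, y 23.7% and z 5.59%. Both x and y were members for 63 names. In 37 of them x was the higher by the mean log2 ratio, in 34 of these in each library, and in 26 y was the higher, in 24 of these in each library. In the other 5 names the libraries did not take the same side.

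Most names were strongly one-sided. The median size of the log2 ratio of x to y was 4.38, with a median SD of 0.546 between libraries, and 39 of 63 names differed by at least 10-fold and 16 by at least 100-fold. A ratio was taken only where both endings were members. It thus leaves out names such as miR-99 (x 2335 TPM, y 0.129 TPM) and miR-19 (y 767 TPM, x 0.783 TPM). Among those of the 63 names above 1000 TPM, the most one-sided toward x were miR-100 (log2 x over y 10.58 ± 0.57), miR-26 (10.13 ± 0.64), miR-462 (9.91 ± 0.74), miR-122 (9.53 ± 1.19) and miR-125 (9.51 ± 0.17). Toward y they were miR-92 (-10.15 ± 0.29), miR-128 (-9.30 ± 0.97), miR-23 (-9.10 ± 1.02) and miR-200 (-8.93 ± 0.15), while miR-22, the most abundant name with y on top, stood at -7.02 ± 0.88. The ratio of miR-122 moved most among these, at 10.78, 8.40 and 9.41 in controls 1, 2 and 3, highest where miR-122-y was lowest. Of the 10 most abundant names, miR-199 had the smallest imbalance, with x at 91.0% and y at 8.94% of the family.

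Even use of both endings was rare among the 63 names with x and y as members. Among the 50 of them with at least 100 TPM in the 2 endings together, 36 differed by at least 10-fold and 4 lay within 2-fold: miR-7132, miR-210, miR-145 and miR-29. The log2 ratio of miR-7132, at 0.10 ± 0.19, did not differ from even beyond its spread. Neither did that of miR-210 at -0.10 ± 0.75, a ratio that leaves out miR-210-z, which has the seed of y. Summed by seed, y and z of miR-210 held 237 TPM against 113 TPM for x. In miR-145, the cluster partner of miR-143, y was the higher in each library (log2 -0.53, -0.43 and -0.25). In miR-29 the ratio was -0.05, 0.999 and 0.74, so that x was the higher in controls 2 and 3 only. Next came miR-2188, a name at 553 TPM in which x held 66.8% and y 33.2%. The cluster partners miR-143 and miR-145 therefore differed in balance, with log2 ratios of -6.04 ± 0.29 and -0.40 ± 0.14.

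**Figure D3:**
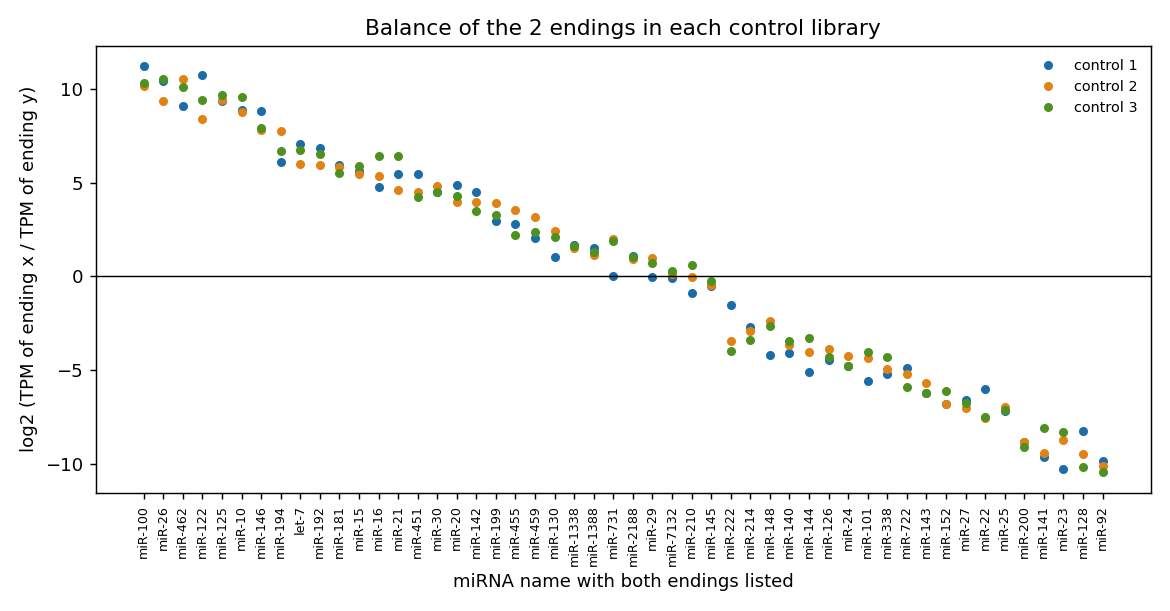
Log2 ratio of the TPM of ending x to that of ending y in each control library, for the 50 names with both endings among the members and at least 100 TPM in the pair, ordered by their mean. Ratios run from about 10.58 for miR-100 to -10.15 for miR-92, and 4 names have a mean within 2-fold of even.

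No name had x and y with the same seed (0 of 63). Of the 66 entries ending in z, 45 stood beside an x or y of the same name: 14 had the seed of x, 20 the seed of y, 9 a seed shifted by at least 1 base and 2 neither. The most abundant z entry, miR-100-z, had 40460, 9319 and 16321 TPM. Like it, miR-125-z at 1144 TPM is its x sequence with 1 more base at the 3′ end. The listed miR-152-z, at 1999 TPM, differs from miR-152-y by 1 base, and let-7-z, at 2441 TPM, differs from let-7-x by 4 bases. The miR-100-z share of its family stayed at 22.8% ± 2.40 while the family itself moved more than 3-fold between libraries. The other 21 z entries had no x or y of the same name among the members, and their median was 6.53 TPM. In length, 11 of the 21 were 18 or 19 nt, against 19 of all 249 known members. Numbers of 1000 and above were carried by 15 of the 21, against 44 of the 249. Across all known entries, the 44 with numbers of 1000 and above held 0.256% of the known abundance.

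The predicted entries were many but rare. They made 45.4% of the entries and 0.246%, 0.204% and 0.179% of the pool in controls 1, 2 and 3, a mean of 0.209% ± 0.0339. Their median was 2.40 TPM, against 42.9 TPM for known entries. Of these entries 2 lay above 100 TPM, 29 between 10 and 100 TPM and 176 below 10 TPM. The sequences of the 8 most abundant predicted entries, 5 in number, are shown with their ranks among the 456 members and the seed in capitals.

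predicted, rank 67: tACGGTATgttatgtagactac
predicted, rank 115: tAGAATACtgtagtatgtact
predicted, rank 123: tACGGTATgtactgtagact
predicted, rank 128: aTCACGTCggggtcacca
predicted, rank 139: tCCCGGGTttcggcacca

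The first, the third and the fifth are each listed under 2 names, with the rank of one given. The first had 544, 371 and 338 TPM under both names. The second had 70.8, 78.8 and 41.1 TPM, and the third 55.0, 46.1 and 44.2 TPM, with the seed of the first. The last 2 sequences had 48.4, 47.8 and 38.5 TPM and 41.8, 38.8 and 30.6 TPM, and both are 18 nt long and end in CCA. In all, 48 predicted sequences were listed under several names, up to 8 for one, and in 39 of the 48 the values were identical. The members thus hold 374 distinct sequences, 241 of them known, and the summed share of predicted entries counts some reads more than once. The 249 known members also repeat some sequences: miR-17-x (82.4 TPM) and miR-106-z (75.8 TPM) list the same one. Shares of known names may therefore count some reads more than once too, which was not tested. The seed of a known member was carried by 9 predicted entries (7 sequences), one of them with the seed of miR-146-x, and none has the sequence of a known member.

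Lengths lay around 22 nt. Of 456 entries, 395 (86.6%) were 21 to 23 nt long, and they held 94.6% ± 1.06 of the pool. The most frequent length by entry was 22 nt with 201 entries, while by abundance 21 nt led with 45.3% ± 9.91, mostly miR-122-x. Known entries were spread more widely (21 to 23 nt in 83.5%) than predicted ones (90.3%). Entries of 24 to 26 nt numbered 14 and held 5.06%, nearly all of it the listed miR-30-x of 24 nt.

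**Figure D4:**
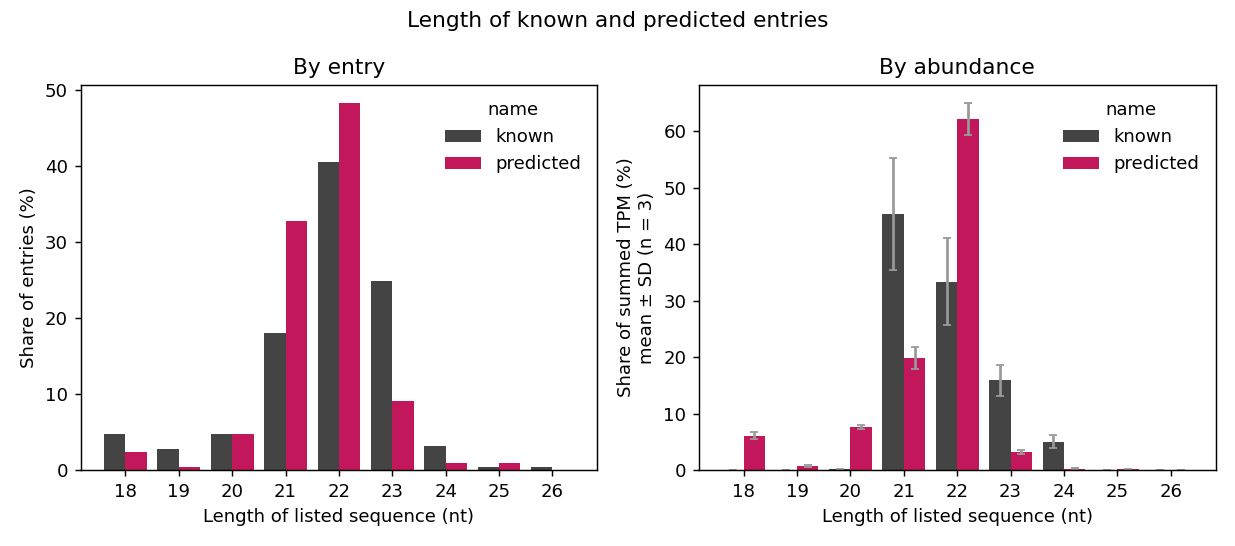
Length of the listed sequence (nt) for known and predicted entries, as a share of entries and as a share of summed TPM (mean and SD of 3 control libraries, each class summing to 100%). By entry both classes peak at 22 nt; by abundance known entries peak at 21 nt with 45.4% and predicted ones at 22 nt with 62.1%.

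These lengths describe the listed sequence of a name and not its reads. The deposited file holds the control libraries a second time, in a table with the acute hypoxia libraries, where all 249 known members recur. For 26 of them the listed sequence is another one, although the mean abundance of 21 of these 26 agrees within 1% between the tables. The 26 names hold 14.9% of the pool. In length 20 differ, and 5, with 0.00756% of the pool, differ in the seed. The clearest case is miR-30-x, with 47647 TPM in the first table and 47645 TPM in the second. Its 2 listed sequences share the first 12 bases, with the seed in capitals.

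miR-30-x, first table: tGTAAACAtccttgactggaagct
miR-30-x, second table: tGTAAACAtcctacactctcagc
miR-192-x, second table: aTGACCTAtgaattgacagcc

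The second listed miR-30-x is 23 nt long, and with the second table's sequences 21 to 23 nt held 99.4% of the pool. The value of a name therefore covers more than the 1 sequence beside it, and family and seed shares are less exposed to this than lengths and 3′ ends. The listed miR-192-x was 22 nt in the first and 21 nt in the second table.

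The shortest entries differed in make-up. Of 17 entries of 18 nt, 16 end in CCA (13 of 14 distinct sequences), 11 of them under known names and 5 predicted. None of 8 entries of 19 nt did, and 9 of 431 entries of 20 nt and over did, miR-192-x of the first table among them. The 4 most abundant 18-nt sequences are shown with the last 3 bases in capitals.

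miR-2478-z: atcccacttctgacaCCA
miR-7977-z: ttcccggccaatgcaCCA
miR-4454-z: atccgggtcacggcaCCA
miR-1260-z: atcccaccgctgtcaCCA

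Their abundance was 287, 343 and 348 TPM for miR-2478-z, 94.1, 121 and 94.7 TPM for miR-7977-z, 81.6, 68.8 and 135 TPM for miR-4454-z and 39.5, 55.6 and 53.1 TPM for miR-1260-z. The 16 entries had a median GC content of 61.1%, against 43.5% for entries of 21 to 23 nt. The entries miR-2779-z and miR-7550-z list one and the same sequence at 44.8 and 28.9 TPM. As background, every mature tRNA ends in CCA; whether these reads came from tRNAs was not tested. All 18-nt entries together held 0.0819% of the pool.

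A first base U, which Argonaute proteins often prefer, stood in 240 of 456 entries (52.6%) and in 70.5% ± 6.43 of the pool. Without miR-122-x, which begins with U, it was 49.3% of the pool. A began 20.3% ± 6.09 of the pool, with miR-100-x the largest such entry, C began 8.99% and G 0.210% ± 0.0433. G was rare by entry too, at 28 of 456.

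Between the 3 libraries the median coefficient of variation (CV, SD over mean) was 30.1% over all members, against 12.5% from counting error alone. It was 34.0% at 1 to 10 TPM, where counting gives 21.4%, and 25.5% for the 99 members of at least 100 TPM, where counting gives 1.24%. Of those 99, 98 varied by more than counting error, 28 had at least a 2-fold range and 6 at least a 4-fold range. Control 1 lay more than 2-fold from both others in 12 of the 99, control 3 in 5 and control 2 in 0. A CV over 2 libraries tends to be lower than a CV over 3, so a fall does not by itself mark a library. With 1 library left out, the median CV over all members was lower whichever library it was. It was 20.5% without control 1, 28.4% without control 2 and 25.8% without control 3.

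The most variable of the 99 was miR-148-y (CV 86.0%), with 17812, 4739 and 4273 TPM in controls 1, 2 and 3. It was followed by miR-122-y (78.1%), miR-100-z (74.1%), and miR-221-z (71.3%) with 736, 175 and 317 TPM. The next were miR-150-x (63.9%), miR-221-y (62.4%) with 313, 100 and 135 TPM, miR-100-x (62.3%) and miR-128-y (57.0%) with 1875, 5927 and 7516 TPM. In all 8 control 1 was the library at one end, as it was for most of the 99 (highest for 51, lowest for 25). Of the 8 it was highest for miR-148-y, miR-100-x, miR-100-z, miR-221-z and miR-221-y, and lowest for miR-122-y, miR-150-x and miR-128-y. The seed partner of miR-148-y, miR-152-y, moved less, with 5252, 4180 and 2996 TPM. The least variable were miR-210-z (CV 2.40%) with 114, 114 and 110 TPM, miR-125-x (3.99%), miR-200-z (4.30%) with 509, 467 and 489 TPM, miR-192-z (4.74%) and miR-214-y (4.85%).

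**Figure D5:**
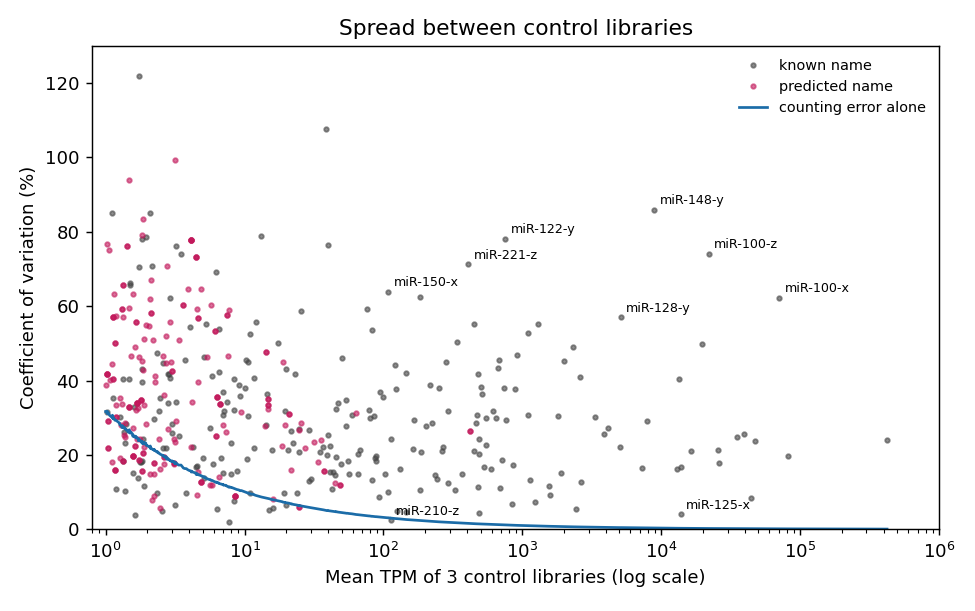
Coefficient of variation (%) over the 3 control libraries against mean TPM (log scale) for each member, with the line that counting error alone gives. Above 100 TPM the line is near 0 while the median entry stands at 25.5%, and miR-148-y at 86.0% is the highest.

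Values are parts of a whole, so a lower miR-122-x goes by construction with a higher sum of the other entries, though not with a higher value of each. As deposited, control 1 was the highest library for 51 of the 99 entries and the lowest for 25. Rescaled to the pool without miR-122-x, it was the highest for 30 of 98 and the lowest for 51. Scaled by the median of ratios, it was the highest for 45 of 99 and the lowest for 33. Which library was highest most often thus depended on the scale. The median CV of the abundant entries was 24.2% on the rescaled values and 21.6% by the median of ratios, against 25.5% as deposited.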

How the data were processed

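Small RNA of 3 control liver libraries was analysed. Per the labels' protocols, total RNA was extracted with Trizol and miRNA libraries followed standard Illumina protocols. Which aligner, build, counter and miRNA predictor were used is not given in the sources used here. As for the values, the authors' deposited file stacks 3 tables; the first (control with moderate hypoxia) gave the values, and the second (control with acute hypoxia) an alternative. The deposited abundance is a signal named TPM per the file headers, with sums per library checked to lie close together and 0.01 for entries without reads, set to 0 here. Lengths are those of the deposited sequences. Low values were whole multiples of 1 step per library (100% within 0.1), which returned the read totals behind the scaling.

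Shares, ranks, log2 ratios, SDs and CVs were computed per library with Python 3.11.15, pandas 2.3.3, numpy 2.4.6 and scipy 1.17.1, and the steps for reads and CVs were checked on simulated data. With 1 group, no comparison between groups was tested and no p-value is given. Entries named are the 20 highest, the 12 leading families, the 8 highest predicted, the most abundant and the most even names with several endings, the 8 highest and 5 lowest CVs from 100 TPM, leading list members, and those beside the cut; others were named after their values were seen. The members and lists were chosen with earlier results of these data known. Predicted names hold for the first table only: of 78 that both tables share among members, 6 carry the same sequence.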

Additional observations from a re-analysis of the deposited data

How the results depend on the processing

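Of 130 alternative values over 17 results, 107 stayed close, 22 moved and 1 reversed. Close meant within the spread between libraries for shares by abundance, ratios and correlations. For shares by entry it meant within a 95% binomial interval, and for counts within a fixed fold. Leaving out 1 of 3 libraries cannot shift a mean share or the miR-122 ratio by a full SD. Those values could thus hardly be labelled as moved, and their closeness says little. The reversed one is the second family rank: without control 1 the miR-100 family held 5.85% and fell behind miR-199, and over the libraries left out in turn it held 5.85% to 11.6%. The number of members was 196 at a mean of at least 10 TPM and 1231 with no cut. The share of known names was 99.84% at 10 TPM, 99.84% in the acute hypoxia table and 99.88% with repeated sequences counted once, against 99.79% as reported. By entry it was 84.2% at 10 TPM, 35.2% with no cut, 61.5% with 1 TPM in every library and 64.4% with repeats once. Without miR-122-x, x held 70.7%, y 23.8%, z 5.58%, 21 to 23 nt 90.6% and a first U 49.3%. In the acute hypoxia table, lengths of 21 to 23 nt held 99.4%, since that table lists miR-30-x at 23 nt. The median CV was 25.5% at 10 TPM and 25.5% at 100 TPM. With 1 library left out it was 20.5% to 28.4%, where a CV over fewer values tends to be lower. The lowest correlation between libraries was 0.970 with a pseudocount of 0.1, 0.986 with 5 and 0.971 at 10 TPM, against 0.980. No analysis paired between groups was possible because the 3 libraries form a single group. Ratios of endings were taken within each library.

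All SDs rest on 3 libraries. No use of molecular identifiers is known here, so counting error is taken as a lower bound, and it is largest near the cut of 1 TPM. Lengths and first bases rest on 1 listed sequence per name. How reads of near-identical names were divided was not tested. Shares sum to a whole, so a change in miR-122-x goes with an opposite change in the sum of all others.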
